A study of Mus musculus with 3 samples.

Results

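A set of 9 genes of the plasminogen system and of coagulation was followed in cultured mouse hepatic stellate cells of 3 genotypes. The genes are the plasminogen activators Plat and Plau, the cell-surface receptors Plaur and Anxa2, the serpins Serpine2 and Serpinf1, and the coagulation genes F3, Thbd and F2r. They were taken by name, with earlier results of these data known, and matched to their Entrez numbers. All 9 were found among the 17870 genes listed in any library. The cells came from male C57BL/6 mice aged 24 weeks that were wild type, TLR4-/- or CD44-/-. TLR4 senses bacterial lipopolysaccharide and CD44 binds hyaluronan, and the series title asks what lacking either one does to these cells. Stellate cells were purified by enzyme perfusion and density gradient, depleted of liver macrophages with Cd11b beads, grown with 10% serum for 3 days and then starved of serum for 24 h. The labels name no other treatment of mice or cells. Each genotype has 1 library, so differences could not be checked against replicates, and the 95% intervals given cover counting error only. The design text of the series speaks of triplicates and writes TLR4-/- for both knockout groups. Genotypes are given here as the sample labels have them, and whether a library combines several cultures is not stated. The sources used here do not give the knockout alleles or say whether animals were pooled.

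Plasminogen is a circulating zymogen that the activators cut to plasmin, a protease that dissolves fibrin and also acts on pericellular matrix. Serpins trap these proteases, and surface receptors hold activator and plasminogen at the cell membrane. Coagulation starts when tissue factor meets its plasma partner, leads to thrombin, and is restrained by thrombomodulin, which turns thrombin towards protein C activation. Thrombin also signals to stellate cells through protease-activated receptors, and this signalling is studied as a link between injury and liver fibrosis.

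Libraries held 21460725 to 24078669 expected counts (estimated reads). FPKM, reads scaled by transcript length and library total, is the scale of all levels here. Stellate cell markers were high in every library, with all 15 listed markers at FPKM of at least 1. Their sums were 5411 FPKM for wild type, 5020 for the library labelled TLR4-/- and 6840 for CD44-/-. Dcn alone made 2614, 2951 and 4337 FPKM of these sums, so they mostly follow this gene. Acta2 stood at 235, 81.5 and 148 FPKM, Colec11 at 94.4, 14.1 and 100, and Col1a1 at 588, 358 and 205. Of the 15 markers, 3 stood above wild type under the TLR4-/- label and 9 in CD44-/-. The labels were checked on the targeted genes: Cd44 had 17.2 FPKM in wild type and 2.57 in CD44-/-, while Tlr4 had 15.8 in wild type and 10.9 in the library labelled TLR4-/-, a ratio of 0.693 (0.639 to 0.752). A gene-level value can hold reads from outside a deleted part, so the Tlr4 value leaves that label unsettled and the library is called the TLR4-labelled library throughout. The 15 macrophage markers summed to 55.3, 25.4 and 546 FPKM in wild type, the TLR4-labelled library and CD44-/-, with Fcgr1 and Aif1 at 0 in wild type and Clec4f, Fcgr1 and Aif1 at 0 in the TLR4-labelled library. Lyz2 made 31.4, 11.1 and 362 FPKM of the macrophage sums. The 14 endothelial markers summed to 94.1, 25.5 and 41.5 FPKM with none at 0, of which Egfl7 alone made 31.4, 21.4 and 23.9. The 8 hepatocyte markers summed to 10.3, 1.97 and 0.890 FPKM, the 10 cholangiocyte and mesothelial markers to 16.4, 5.42 and 4.39, and the 5 platelet markers to 10.2, 13.6 and 26.1. Pf4 alone made 9.46, 12.2 and 24.7 FPKM of the platelet sums. Ppbp was at 0 in every library and Gp9 at 0 in wild type and CD44-/-. The 6 vascular smooth muscle markers summed to 174, 139 and 125. Des, also listed for stellate cells, made 105, 97.1 and 82.3 FPKM of these last sums, and Smtn made 51.5, 33.8 and 31.8. In bulk RNA, fewer cells of a type and less RNA per cell cannot be told apart.

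In wild-type cells the levels ran over 3 orders, from Anxa2 at 600 FPKM to Serpinf1 at 0.42. Anxa2 ranked 105 among the 12371 genes with FPKM of at least 1 in any library, and Thbd ranked 265. F2r followed at 69.4 FPKM, then F3 at 20.7, Plaur at 19.9, Plau at 15.8, Plat at 13.6 and Serpine2 at 10.1. Among these neighbours, the counting intervals of F3 and Plaur overlapped and those of the other pairs did not. Anxa2, Thbd and F2r kept the first 3 places in all 3 libraries. Below them the order differed: F3 took place 4 in wild type, 5 in the TLR4-labelled library and 8 in CD44-/-, while Plau took places 6, 8 and 5. In the TLR4-labelled library the intervals of F3 and Serpine2, and of Serpine2 and Plat, overlapped. In CD44-/- those of Plaur and Plau, and of Serpine2 and F3, overlapped.

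**Figure D1:**
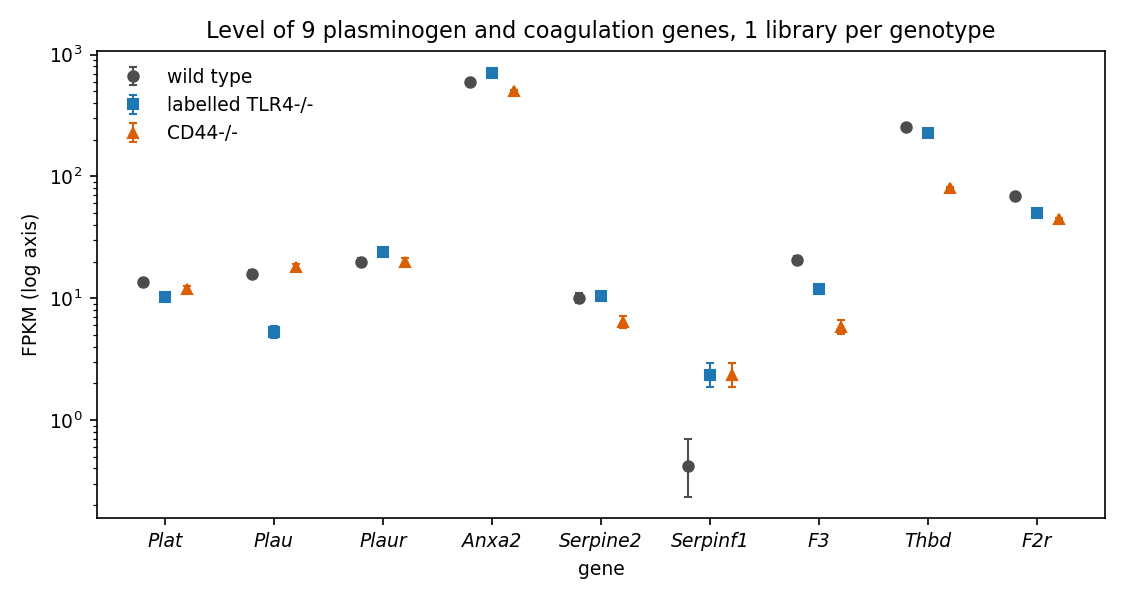
FPKM of each of the 9 genes on a log axis in wild type (circles), the TLR4-labelled library (squares) and CD44-/- (triangles), 1 library each, with bars for the 95% counting interval. Plau stands low in the TLR4-labelled library (5.32 FPKM), F3 and Thbd stand low in CD44-/- (5.78 and 80.4), and Serpinf1 stands low in wild type (0.42).

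Differences between libraries were described by a size rule, a log2 ratio of FPKM + 1 that reached 1 or -1, applied to genes that reached FPKM 1 in either library of the pair. Under it Plau was lower and Serpinf1 higher in the TLR4-labelled library than in wild type, which is 2 of 9 genes, where 3.74% of 12098 genes passed in either direction. In CD44-/- against wild type F3 and Thbd were lower and Serpinf1 higher, which is 3 of 9, where 4.21% of 12247 genes passed. Between the TLR4-labelled and CD44-/- libraries, Plau was lower and Thbd higher in the former, which is 2 of 9, where 4.76% of 12168 genes passed. Both comparisons with wild type share that library. All 9 genes passed the filter in every comparison, but Serpinf1 did so only through the libraries where it was higher, so its part in these counts is a description. The 9 genes were also chosen with earlier results of these data known, so the counts as a whole are a description too. The median log2 ratio of the 9 was -0.16, -0.24 and 0.27 in these comparisons in turn, beside 0.03, 0.03 and 0.01 over all genes. The counting interval of the FPKM ratio excluded 1 for 8 of the 9 genes in each comparison, where 63.5%, 56.8% and 61.5% of all genes did so. These intervals narrow as reads rise, and the genes were not matched for reads, so the shares cannot be compared directly.

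**Figure D2:**
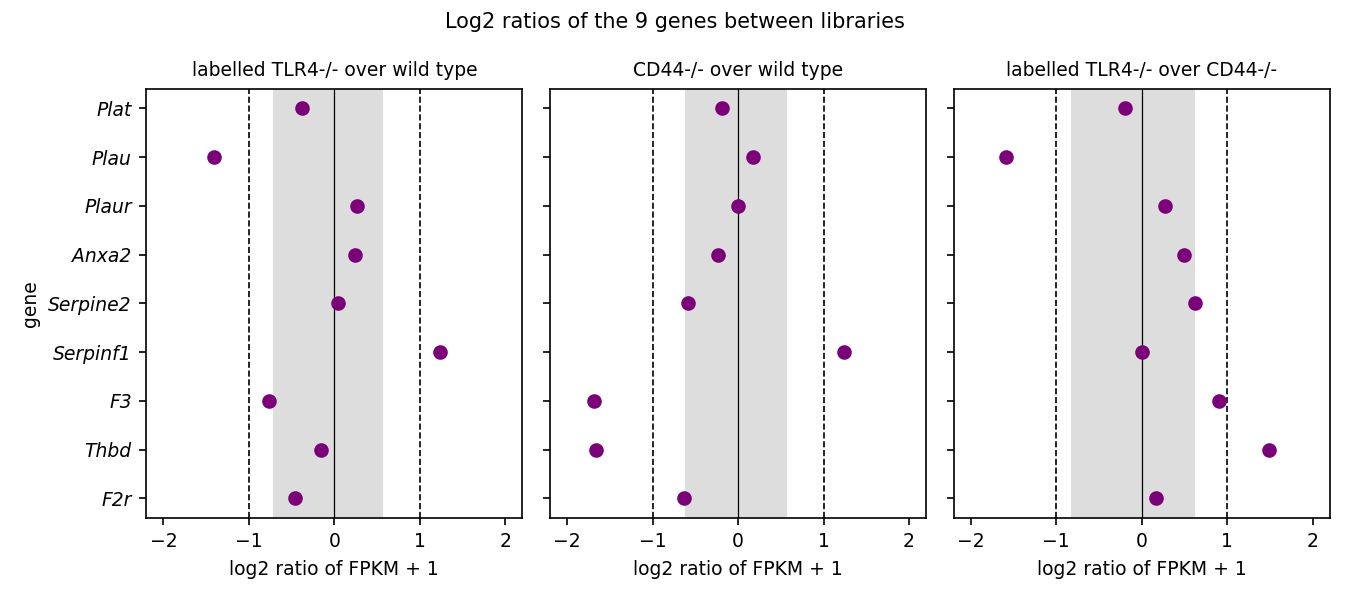
Log2 ratio of FPKM + 1 for each gene in the 3 comparisons, with dashed lines at -1 and 1 and a grey band from the 5th to the 95th percentile of all genes in that comparison. Serpinf1 lies at 1.24 in both comparisons with wild type, Plau at -1.41 in the first and -1.59 in the third, F3 at -1.68 in the second, and Thbd at -1.66 in the second and 1.49 in the third.

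Plau encodes urokinase, the activator that works mainly at the cell surface. It stood at 15.8 FPKM in wild type (894 reads), 5.32 in the TLR4-labelled library (295 reads) and 18.0 in CD44-/- (904 reads). The TLR4-labelled library is the low one and the others lie close together. Plau was 2.98-fold lower there than in wild type (interval 2.61 to 3.41) and 3.38-fold lower than in CD44-/- (2.96 to 3.87), while the ratio of CD44-/- to wild type was 1.13 (1.03 to 1.25). Its log2 ratio to wild type in the TLR4-labelled library had 1.15% of all genes below it. Macrophages also make urokinase, and the macrophage marker sum was lowest in the same library (25.4 FPKM), but in CD44-/- that sum was 546 against 55.3 in wild type beside the Plau ratio of 1.13. The part of such cells in the Plau difference was not tested.

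Plat encodes tissue-type plasminogen activator, the activator that works best on fibrin. It stood at 13.6 FPKM in the wild type, 10.2 in the TLR4-labelled library and 11.8 in CD44-/-, on 835, 617 and 644 reads. All 3 values lie within a narrow range, with wild type highest. The ratio to wild type was 0.752 (0.677 to 0.835) in the TLR4-labelled library and 0.865 (0.780 to 0.960) in CD44-/-. Urokinase was thus at 1.17 times the level of Plat per length in wild type (1.06 to 1.28) and 1.53 times in CD44-/- (1.38 to 1.69), but at 0.521 times in the TLR4-labelled library (0.452 to 0.599).

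Plaur encodes the urokinase receptor, which anchors urokinase to the membrane. Its levels were 19.9, 24.1 and 19.9 FPKM in wild type, the TLR4-labelled library and CD44-/-, on 662, 788 and 589 reads. The TLR4-labelled library is the highest, at 1.21 times wild type (1.09 to 1.34), and the ratio of CD44-/- to wild type was 0.998 (0.892 to 1.12). The level of Plau relative to its receptor was 0.796 in wild type (0.719 to 0.881), 0.904 in CD44-/- (lower bound 0.814) and 0.221 in the TLR4-labelled library (0.192 to 0.253), where ligand and receptor differed from wild type in opposite directions.

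Anxa2 encodes annexin A2, which pairs with S100a10 at the membrane to bind plasminogen and tissue-type activator. It stood at 600 FPKM in the wild type, 711 in the TLR4-labelled library and 506 in CD44-/-, on 14774 reads or more. The ratio to wild type was 1.19 (1.16 to 1.21) and 0.844 (0.826 to 0.862), so the intervals lie on opposite sides of 1 while both sizes are small. S100a10 stood at 207, 231 and 207 FPKM, and Anxa2 was at 2.89, 3.08 and 2.45 times its level. In GENCODE M21 an antisense gene, Gm16144, and a microRNA gene, Mir3109, overlap Anxa2, and no gene overlaps the other 8. The sources used here do not state strand handling, so the Anxa2 value may hold antisense reads.

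Serpine2 encodes protease nexin-1, a serpin that blocks thrombin, urokinase and plasmin near the cell surface. It stood at 10.1 FPKM in the wild type, 10.4 in the TLR4-labelled library and 6.40 in CD44-/-, on 502, 507 and 284 reads. Wild type and the TLR4-labelled library lie together and CD44-/- is low, at 0.635 of wild type (0.547 to 0.736), whereas the ratio of the TLR4-labelled library to wild type was 1.03 (0.907 to 1.17). Serpinf1 encodes PEDF, a secreted serpin that does not inhibit proteases and is known for restraining blood vessel growth. It was the rarest of the 9, at 0.42, 2.36 and 2.35 FPKM on 15, 83 and 75 reads. The knockout-labelled libraries lie together above wild type, at 5.63-fold (3.23 to 10.5) and 5.61-fold (3.19 to 10.5), and the interval of their ratio to each other ran from 0.726 to 1.39. Hepatocytes are a known source of PEDF, and their 8 markers summed to 10.3, 1.97 and 0.890 FPKM, of which Alb made 9.14 in wild type. The part of such cells in the Serpinf1 values was not tested.

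F3 encodes tissue factor, the membrane protein that starts coagulation. It stood at 20.7 FPKM in the wild type, 11.8 in the TLR4-labelled library and 5.78 in CD44-/-, on 933, 520 and 232 reads. The 3 libraries form 3 separate levels with wild type highest. F3 was 1.76-fold lower than wild type in the TLR4-labelled library (1.58 to 1.97), short of the size rule, and 3.59-fold lower in CD44-/- (3.10 to 4.16), where 0.474% of all genes had a lower log2 ratio. Between the knockout-labelled libraries the FPKM ratio was 2.03 (1.74 to 2.39), but the log2 ratio of FPKM + 1 was 0.91 and so short of the rule, and it was 1.01 with 0.1 added in place of 1.

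Thbd encodes thrombomodulin, the surface protein that binds thrombin and turns it towards activating protein C. It stood at 255 FPKM in the wild type, 228 in the TLR4-labelled library and 80.4 in CD44-/-, on 23008, 20166 and 6452 reads. CD44-/- is the low library and the others lie close together. Thbd was 3.18-fold lower in CD44-/- than in wild type (3.09 to 3.27) and 1.12-fold lower in the TLR4-labelled library (1.10 to 1.14). The TLR4-labelled library held 2.83 times the level of CD44-/- (2.76 to 2.92), a log2 ratio that 0.386% of all genes exceeded. Endothelial cells are a classical site of thrombomodulin, and the 14 endothelial markers summed to 94.1 FPKM in wild type, 25.5 in the TLR4-labelled library and 41.5 in CD44-/-. Egfl7 alone made 31.4, 21.4 and 23.9 FPKM of these sums. Against wild type, 9 of the 11 markers that passed the filter were at least 2-fold lower in the TLR4-labelled library and 7 of 12 in CD44-/-. Over all genes 2.69% and 1.97% were. Of the 14 markers, 11 reached FPKM 1 in wild type, 1 in the TLR4-labelled library and 7 in CD44-/-. The lower ones in the TLR4-labelled library thus passed the filter only through wild type, as did Erg and Clec4g against CD44-/-. These counts are therefore a description. Vwf went the other way in CD44-/-, at 1.16 FPKM against 0.24. The part of such cells in the Thbd values was not tested.

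F2r encodes PAR1, the main thrombin receptor of stellate cells. It stood at 69.4 FPKM in the wild type, 50.1 in the TLR4-labelled library and 44.4 in CD44-/-, on 5534, 3926 and 3156 reads. Wild type is the highest and the others lie nearer to each other. The ratio to wild type was 0.722 (0.693 to 0.752) and 0.640 (0.612 to 0.669), and neither passed the size rule. F2rl1, the gene for PAR2 and named here after its values were seen, stood at 1.20, 0.21 and 0.13 FPKM on 80, 14 and 8 reads, so that F2r was the most abundant of the 4 receptor genes in each library, with F2rl2 and F2rl3 at 0.24 FPKM or less.

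The sequences just before the transcription start are shown for the F3 and F2r genes, whose levels were highest in wild type, and for Anxa2 and Serpinf1, whose levels were not. Each runs over the 250 bases before the RefSeq start, GRCm38.p6, 5′ to 3′ on the gene's own strand. F3 is chr3:121723287-121723536, plus strand, F2r is chr13:95618467-95618716, minus strand, Anxa2 is chr9:69453433-69453682, plus strand and Serpinf1 is chr11:75422624-75422873, minus strand. Capitals mark every match to the motifs listed after the sequences.
F3: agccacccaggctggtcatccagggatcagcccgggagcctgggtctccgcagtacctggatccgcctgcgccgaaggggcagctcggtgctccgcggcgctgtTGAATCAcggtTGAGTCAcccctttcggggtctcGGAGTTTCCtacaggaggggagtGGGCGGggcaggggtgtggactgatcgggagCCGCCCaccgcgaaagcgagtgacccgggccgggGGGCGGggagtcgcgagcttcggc
F2r: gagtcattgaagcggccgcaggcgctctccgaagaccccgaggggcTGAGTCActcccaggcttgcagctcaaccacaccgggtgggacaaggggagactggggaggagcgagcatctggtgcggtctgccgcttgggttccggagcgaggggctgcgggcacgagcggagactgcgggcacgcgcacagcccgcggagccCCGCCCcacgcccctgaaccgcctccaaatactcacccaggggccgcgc
Anxa2: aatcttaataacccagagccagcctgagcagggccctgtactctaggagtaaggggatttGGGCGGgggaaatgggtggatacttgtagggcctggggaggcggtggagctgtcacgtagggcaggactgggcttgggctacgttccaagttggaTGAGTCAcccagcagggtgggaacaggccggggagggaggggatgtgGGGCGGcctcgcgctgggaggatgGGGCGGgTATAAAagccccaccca
Serpinf1: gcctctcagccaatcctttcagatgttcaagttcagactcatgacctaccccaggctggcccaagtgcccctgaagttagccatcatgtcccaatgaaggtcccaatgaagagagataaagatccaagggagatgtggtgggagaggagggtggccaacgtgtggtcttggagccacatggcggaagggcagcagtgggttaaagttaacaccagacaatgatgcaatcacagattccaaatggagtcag
The motifs searched on both strands were AP-1 (TGANTCA), NF-kB (GGANTTTCC), EGR (GCGNGGGCG), SP/KLF (GGGCGG), the TATA box (TATAAA), TEAD (GGAATG), SMAD (GTCTAGAC) and the E-box (CACGTG), and the EGR and SP/KLF motifs can overlap. An entry was found for 6 of the 9 genes, and Plat, Plau and Thbd had none. The windows of 5 genes end just before the first base of the annotated gene, while that of Plaur, from 24462233 to 24462482 on chromosome 7, lies inside the annotated span of the gene, before a later transcript start. The AP-1 letters occur in 4 of the 6 windows, those of F3, F2r, Anxa2 and Plaur, and in 6.75% of all 32851 windows of this length. F3 holds 2 such matches, starting at -146 and -135 from the start, F2r holds 1 at -204 and Anxa2 1 at -95. The SP/KLF letters, found in 32.7% of all windows, occur 6 times in Serpine2, 3 times in F3, Anxa2 and Plaur, and 1 time in F2r. These windows hold 59.6% to 78.8% G and C, beside a median of 52.4% over all windows. Anxa2 also holds a TATA box at -17, a motif of 12.4% of windows, and Serpinf1 holds no match to any motif of the set. The EGR letters, found in 4.70% of windows, occur in the windows of Plaur and Serpine2. The NF-kB letters, found in 1.07% of windows, occur once in F3, at -112. A longer spelling of the NF-kB motif, tried first, matched none of the 6 windows, and all motifs were chosen with the levels known. The TEAD (12.6%), SMAD (0.167%) and E-box (6.02%) letters occur in none of the 6. Of the genes with AP-1 letters, F3 and F2r stood lower and Plaur and Anxa2 higher in the TLR4-labelled library than in wild type. None of them passed the size rule there. Whether the letters bear on the levels was not tested. A match describes letters and not binding.

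The wider plasminogen and coagulation pathways were described with 5 lists of 80 genes in all, of which 48, 52 and 51 passed the filter in the 3 comparisons. In the TLR4-labelled library against wild type 0 were at least 2-fold higher and 2 lower, in CD44-/- 2 were higher and 2 lower, and between the knockout-labelled libraries 1 was higher and 4 lower in the TLR4-labelled library. Over all genes 1.04% were higher and 2.69% lower in the first comparison, 2.24% and 1.97% in the second, and 1.32% and 3.44% in the third. Itgam and Serpinc1, the higher genes in CD44-/- and among the lower ones in the third comparison, passed the filter only through CD44-/-, as did Met in the third, so these counts are a description. The median log2 ratio of the genes that passed was -0.03, 0.00 and -0.12.

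Of 14 genes of the plasminogen activation list that passed the filter in the TLR4-labelled library against wild type, 0 passed the rule. Over all genes 3.74% did, and 14 genes are too few to set against that share. Of 15 in CD44-/- against wild type, Itgam was higher, at 5.09 FPKM against 0.37, beside a macrophage marker sum of 546 against 55.3. Itgam encodes Cd11b, an integrin chain of myeloid cells and the target of the beads used for macrophage depletion. How complete that depletion was in each library was not tested. The medians of the list were -0.02 and -0.18. Eno1, a glycolytic enzyme that also binds plasminogen, was the most abundant of the list at 756, 574 and 453 FPKM, and it has a close copy, so its value is uncertain. The plasminogen gene Plg itself had 2, 1 and 0 reads, where 0 allows up to 0.140 CPM. The endocytic receptor Lrp1, which clears complexes of activators with their inhibitors, stood at 336, 335 and 337 FPKM.

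The activators were also set against Serpine2, an inhibitor of both that also blocks thrombin, within each library. Plau was at 1.57 times the level of Serpine2 in wild type (1.41 to 1.76), at 0.514 in the TLR4-labelled library (0.443 to 0.594) and at 2.81 in CD44-/- (2.45 to 3.22). Plat was at 1.35 times its level in wild type (1.21 to 1.51), 0.986 in the TLR4-labelled library (0.876 to 1.11) and 1.84 in CD44-/- (1.60 to 2.12). Both ratios were thus lowest in the TLR4-labelled library and highest in CD44-/-, and for neither gene do the counting intervals of the 3 libraries overlap. These are ratios of RNA levels per length, and protein or activity was not measured.

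**Figure D3:**
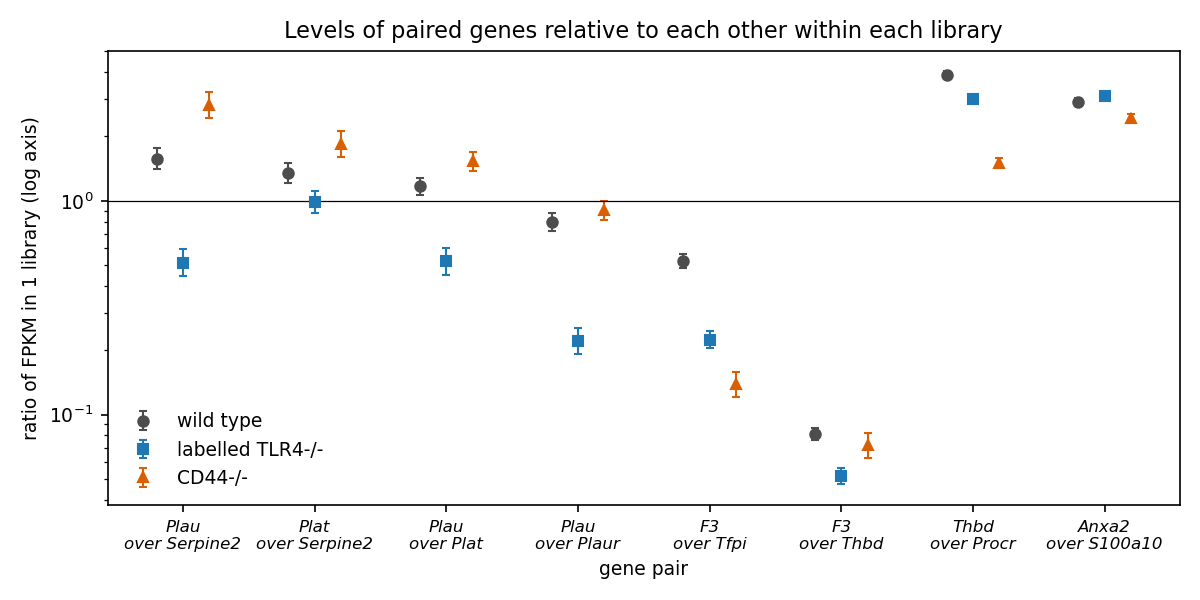
Ratio of FPKM between paired genes within each library on a log axis, with 95% counting intervals as bars and a line at 1. Plau over Serpine2 lies at 1.57 in wild type and 0.514 in the TLR4-labelled library, while F3 over Tfpi lies at 0.523 in wild type and 0.139 in CD44-/-.

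Of 19 procoagulant genes, 5, 6 and 6 passed the filter and 0 passed the rule in the 3 comparisons, too few genes to set against the share of all genes. Their medians were -0.03, 0.07 and -0.18. P4hb, a protein disulfide isomerase, was the most abundant of them at 565, 554 and 563 FPKM. The prothrombin gene F2 had 18, 5 and 2 reads. Of 13 genes of the anticoagulant list, 8, 9 and 9 passed the filter and 1, 2 and 3 of them passed the rule in the 3 comparisons. Over all genes 3.74%, 4.21% and 4.76% did, and this list too has too few genes to set against that share. Its medians were -0.15, -0.26 and -0.64. The 1 gene past the rule in the first comparison was Gas6, a vitamin K-dependent ligand of TAM receptors. Its product is related to protein S but is not itself an established anticoagulant. Gas6 was at 21.2 FPKM in wild type, 4.07 in the TLR4-labelled library and 12.6 in CD44-/-. It was 5.21-fold lower in the TLR4-labelled library than in wild type (4.55 to 5.99). Tfpi2, a matrix-bound inhibitor of plasmin and other proteases, stood at 9.77, 10.6 and 2.75 FPKM, 3.55-fold lower in CD44-/- than in wild type (2.81 to 4.53). Serpinc1, the gene for antithrombin, had 7, 4 and 321 reads, which is 6.90 FPKM in CD44-/- against 0.13 in wild type. It passed the filter only through CD44-/-, so its part in the counts of this list is a description. Anxa1 was the most abundant of the list in wild type and CD44-/-, at 525 and 425 FPKM, and in the TLR4-labelled library it stood at 273 and Anxa5 at 298.

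The partners of tissue factor and thrombomodulin differed less from wild type than the genes themselves in CD44-/-. Tfpi, the direct inhibitor of tissue factor, stood at 39.7, 52.4 and 41.6 FPKM, with a CD44-/- to wild type ratio of 1.05 (0.988 to 1.11). F3 was therefore at 0.523 of Tfpi in wild type (0.484 to 0.564), 0.224 in the TLR4-labelled library (0.204 to 0.246) and 0.139 in CD44-/- (0.121 to 0.159). Procr, the endothelial protein C receptor, which presents protein C to thrombomodulin, stood at 66.2, 76.0 and 53.2 FPKM, and Thbd was at 3.86, 3.00 and 1.51 times its level. F3 relative to Thbd was 0.0812 in wild type (0.0759 to 0.0867), 0.0516 in the TLR4-labelled library (0.0472 to 0.0563) and 0.0719 in CD44-/- (0.0628 to 0.0820). F3 and Thbd were thus lower by 3.59 and 3.18-fold in CD44-/-, and by 1.76 and 1.12-fold in the TLR4-labelled library.

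Of 13 other receptor and signalling genes of the thrombin receptors, 11, 11 and 10 passed the filter and 0 passed the rule. Over all genes 3.74%, 4.21% and 4.76% did, and the list has too few genes to set against that. Its medians were -0.02, 0.09 and -0.20. F2rl1, which passed the filter only through wild type, fell short of the rule at log2 ratios of -0.86 and -0.96 to wild type. Without the added 1 its ratios were 0.178 (0.0932 to 0.317) and 0.112 (0.0468 to 0.232). Rhoa, a small GTPase downstream of PAR1, was the most abundant at 243, 268 and 260 FPKM. Of 12 substrates and targets of plasmin or the activators, 10, 11 and 11 passed the filter. Thbs1, an activator of latent TGF-beta, stood at 85.1, 36.4 and 53.2 FPKM and was 2.34-fold lower than wild type in the TLR4-labelled library (2.27 to 2.42). Ltbp1, which holds latent TGF-beta in the matrix, stood at 31.5, 19.5 and 9.72 FPKM, 3.24-fold lower in CD44-/- (3.07 to 3.43). Met, the receptor for the plasmin system substrate HGF, stood at 0.82, 0.50 and 2.62 FPKM and was 5.21-fold lower in the TLR4-labelled library than in CD44-/- (4.08 to 6.72). Mmp3 was the most abundant of the list in wild type at 598 FPKM.

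**Figure D4:**
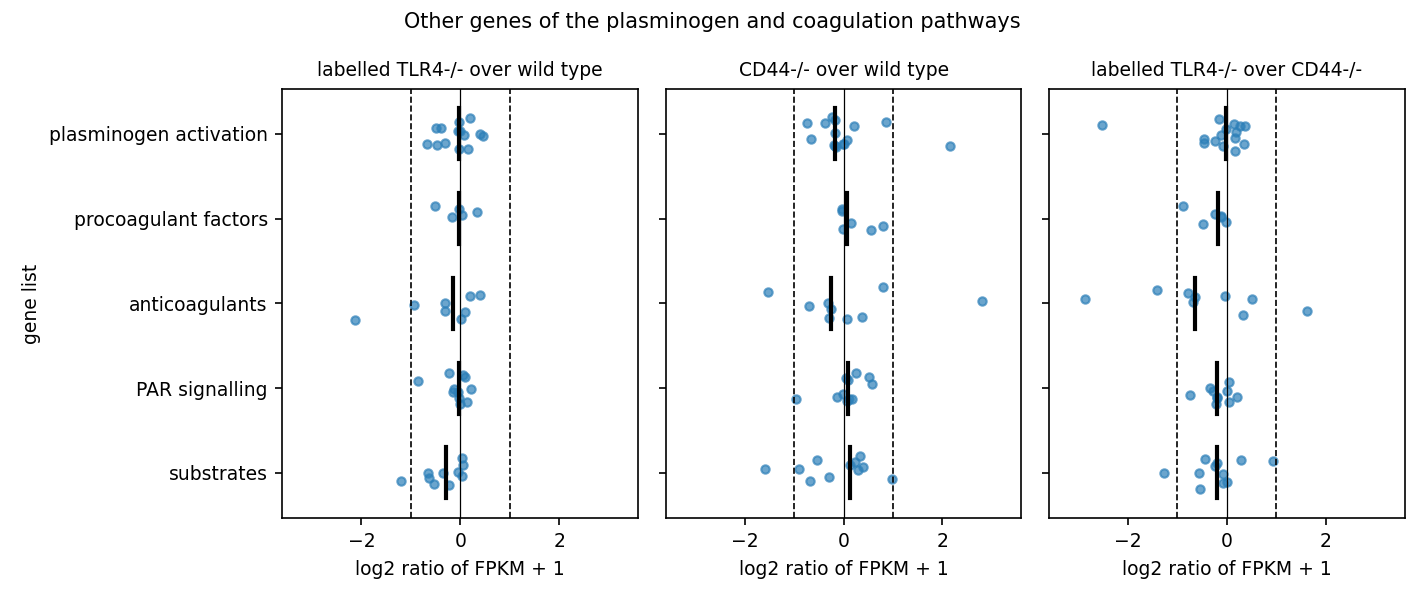
Log2 ratio of FPKM + 1 of each gene of the 5 wider lists that passed the filter (points), with the list median as a black bar and dashed lines at -1 and 1. PAR stands for protease-activated receptor. Most points lie between the lines, and in CD44-/- over wild type the lowest point is Ltbp1 at -1.60 and the highest Serpinc1 at 2.81.

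The genes whose 3 levels were most like those of each of the 4 members past the rule were found by Euclidean distance of log2(FPKM + 1), centred on the gene's mean over the 3 libraries, among 8967 genes. For Plau they were Izumo4, Rarres2 and Slfn2, at distances of 0.12, 0.12 and 0.16, and Rarres2 stood at 57.8, 19.0 and 66.1 FPKM. For F3 they were Ltbp1, Col1a1 and Prl2c2, at 0.078, 0.12 and 0.15, and Col1a1 stood at 588, 358 and 205 FPKM. Prl2c2 belongs to a family of near-identical genes and is uncertain. For Thbd they were Ccnd1, Mmd and Tfpi2, at 0.15, 0.17 and 0.19, and Ccnd1 stood at 98.5, 78.1 and 31.0 FPKM. For Serpinf1 they were Atp6v0c, Rnaset2b and Ung, at 0.17, 0.18 and 0.20, of which Atp6v0c and Rnaset2b have close copies that the counting could have split, so that their values are uncertain. With 3 libraries, likeness of this kind describes the levels only.

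Positions of the genes are those of the RefSeq annotation on GRCm38. F3 lies on chromosome 3 from 121723537 to 121735052, Thbd on chromosome 2 from 148404471 to 148408188, Plau on chromosome 14 from 20836662 to 20843388, Serpinf1 on chromosome 11 from 75410029 to 75422623 and F2r on chromosome 13 from 95601780 to 95618466. Plat lies on chromosome 8 from 22757722 to 22782848, Plaur on chromosome 7 from 24460937 to 24475970, Anxa2 on chromosome 9 from 69453683 to 69491792 and Serpine2 on chromosome 1 from 79794317 to 79858665. All 9 are protein-coding and each was counted on 1 RefSeq transcript in the tables.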

How the data were processed

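RNA was measured by sequencing in 3 libraries, 1 per genotype. Each table the authors deposited gives a gene's expected count (reads as RSEM estimated them, not always whole) and its FPKM. Per the submitters' processing notes, RSEM was run on the mm10 build, in a version that the sources used here do not name. Per the file headers, genes carry Entrez numbers, RefSeq transcripts and a transcript length. The smallest FPKM listed is 0.01, and a missing gene was set to 0. Symbols came from the RefSeq table of GRCm38.p6, which matched 17824 of 17870 genes.

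With 1 library per genotype no test was run. Log2 ratios use FPKM + 1, and a size rule of 2-fold was applied to genes that reached FPKM 1 in either library of a pair. Fold values of named genes are ratios without the added 1. Their 95% intervals are exact (Clopper-Pearson, conditional on the summed rounded expected counts). For genes under FPKM 1 the ratio was taken from the counts with a library-wide factor. Intervals of FPKM levels are exact Poisson. A count of 0 allows up to 3 counts.

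The members and lists were chosen with earlier results of these data known. All members are named, as are, of each wider list, the genes past the rule (up to 4) and the most abundant one. Plg, F2, S100a10, Lrp1, Tfpi, Procr, F2rl1, F2rl2, F2rl3, Anxa5 and Vwf were named outside this rule as partners of members or for comparison. Of the wider lists, 1 further gene was left out and is not reported here. Likeness was taken among genes that reached FPKM 5 and 50 reads in the highest library, leaving out predicted-gene names. Alternatives were FPKM rescaled by median-of-ratios factors or to TPM, CPM scaled by TMM with edgeR 4.0.16 on rounded counts, an added constant of 0.1, a filter at FPKM 5 or none, and a required counting interval. Restriction to protein-coding genes was chosen after seeing the data. Python 3.11.15, scipy 1.17.1 and R 4.3.3 were used.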

Additional observations from a re-analysis of the deposited data

How the results depend on the processing

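Of the 27 log2 ratios of the 9 genes, 24 kept their sign and their side of the 2-fold rule under all alternatives that gave a value. F3 between the knockout-labelled libraries passed the rule, at 1.01 against 0.91, with 0.1 added. Plaur in CD44-/- against wild type (-0.03 to 0.01) and Serpinf1 between the knockout-labelled libraries (0.00 to 0.01) lie at 0 and changed sign under TPM. The Serpinf1 ratio to wild type was 2.24 in both libraries with 0.1 added, against 1.24. A filter at FPKM 5 removes Serpinf1 by construction and left 1 member past the rule in the TLR4-labelled library in place of 2.

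With 0.1 added, the wider lists had 4 genes past the rule in place of 2 in the TLR4-labelled library and 9 in place of 4 in CD44-/-. In CD44-/- they had 8 under TPM (5 higher and 3 lower, against 2 and 2) and 7 under CPM (4 and 3). FPKM summed to 436960 in wild type, 437051 in the TLR4-labelled library and 433965 in CD44-/-. These sums are below the fixed total of TPM, so the added 1 weighs less under TPM. How far this accounts for the counts was not tested. Over all genes the counts with 0.1 added were 718, 777 and 884 in the 3 comparisons in place of 452, 515 and 579, and with a filter at FPKM 5, which tests fewer genes, 258, 310 and 369. No scaling moved the median of all genes by over 0.1 on the log2 scale. No paired analysis was possible because each genotype has 1 library, and for the same reason none could be left out of a group.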
